A study of Homo sapiens with 20 samples.

Results

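Hyaluronan is a long, unbranched sugar polymer of the extracellular matrix, spun out at the plasma membrane by hyaluronan synthases and cut by hyaluronidases. Cells hold it through receptors such as CD44, and proteoglycans such as versican cross-link it into a pericellular coat. In melanoma this matrix is known for its links to adhesion, migration and invasion. The genes examined here were the synthases HAS1, HAS2 and HAS3, the hyaluronidases HYAL1, HYAL2 and HYAL3, the receptors CD44 and HMMR, and the proteoglycan gene VCAN. They were grouped by function around HAS2, and the group was selected on levels already known from these same arrays. The values of HAS2 are therefore given as a description, and no test result is read as support for them. HAS2 enters a test only in the counts under alternative settings at the end. Of the 9 genes, 6 were found among the 18708 rows of the array table: HAS2, HYAL2, CD44, VCAN and HMMR each had a row of its own, and row 3666542 carried both HAS3 and CHTF8, a neighbouring gene of another function. HAS1, HYAL1 and HYAL3 were not analysed here, because the platform annotation lists no row under those names.

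The arrays came from WM793, an established cell line of vertical growth phase melanoma, grown for 3 days before total RNA was taken. The unmodified line (Parent) was compared with 4 lines made from it to overexpress NME1, whose product transfers phosphate between nucleotides and is known for suppressing metastasis. NME1-wild-type carries the unmutated construct, and the mutant constructs are NME1-E5A, NME1-K12Q and, last, NME1-P96S. For each there are 4 arrays, described as technical replicates, and each construct is 1 line, so the spread given below is between arrays and not between independently made lines. The promoter that drives the constructs is not given in the sources used here.

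Levels are log2 expression values as deposited, so a difference of 1 is 2-fold. Array medians lay between 6.27 and 6.50. The interquartile range, the spread of the middle of the values on an array, lay between 2.19 and 3.16, and was narrowest on replicate 2 of Parent (2.19), followed by replicate 3 of NME1-P96S (2.33) and replicate 2 of NME1-K12Q (2.46). The row carrying NME1 and the NME1-NME2 readthrough gene was 0.23 to 0.28 above Parent in the 4 NME1 lines and passed the test in 0 of them (lowest limma adjusted p = 0.85). Of 6 melanocyte lineage markers measured, SOX10 and S100B read above the array median on all 20 arrays, while MITF, MLANA, TYRP1 and PMEL read below it on all 20. All 5 endothelial and all 3 epithelial markers measured read below the median on every array, as did 3 of 6 fibroblast and 3 of 4 leukocyte markers. The mean over the fibroblast markers was between 5.88 and 6.36 on single arrays, that over the leukocyte markers between 4.98 and 6.02.

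HAS2, which encodes a synthase of long hyaluronan chains, was highest in NME1-E5A. Its 4 arrays read 6.05, 6.25, 6.40 and 6.28. The Parent arrays read 5.80, 4.95, 5.30 and 5.52, and the NME1-wild-type arrays 5.39, 5.23, 4.97 and 5.35. The lowest NME1-E5A array was thus above every array of both those lines. NME1-K12Q read 5.58, 5.18, 5.23 and 5.48, and NME1-P96S 5.64, 6.02, 5.11 and 5.51. The nearest array of another line was NME1-P96S replicate 2 at 6.02, only just under the lowest NME1-E5A array at 6.05, so that all 4 NME1-E5A arrays lay above all 16 others.

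**Figure D1:**
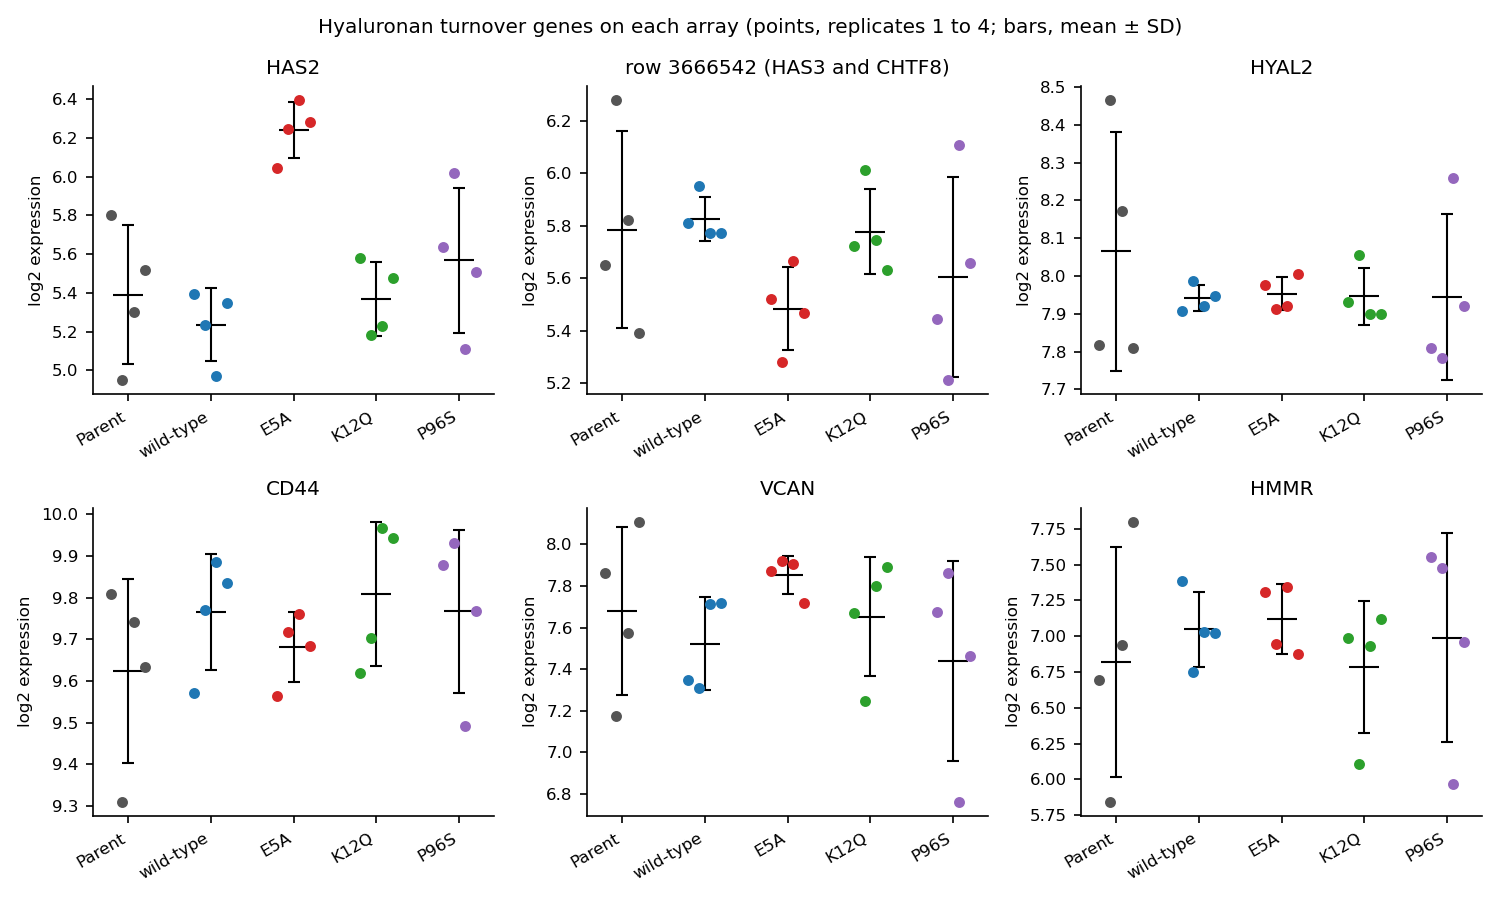
Log2 expression of the 6 rows (vertical axes, a different range in each panel) on the 4 arrays of each line (points, in order of replicate number), with mean and SD as bars. HAS2 lies between 6.05 and 6.40 in NME1-E5A and between 4.95 and 6.02 elsewhere, while the lines overlap in the panels of HYAL2, CD44, VCAN and HMMR.

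The HAS2 means were 6.24 ± 0.145 (SD, n = 4) in NME1-E5A, 5.57 ± 0.375 in NME1-P96S, 5.39 ± 0.360 in Parent, 5.37 ± 0.192 in NME1-K12Q and 5.24 ± 0.189 in NME1-wild-type. NME1-E5A was above Parent by 0.85 (SE 0.185), or 1.81-fold. It was above NME1-wild-type by 1.01, or 2.01-fold, above NME1-K12Q by 0.88, or 1.84-fold, and above NME1-P96S by 0.68, or 1.60-fold. The other 4 lines followed each other at steps of 0.18, 0.02 and 0.13, each with overlapping arrays. These comparisons share arrays and are not independent of each other. The HAS2 row read below the median of its array on 19 of the 20 arrays, and whether it was above background was not examined.

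A feature was called changed at an adjusted p under 0.05 (limma, Benjamini-Hochberg over 18384 features) and a fold of at least 1.5. Of the 5 rows other than HAS2, 0 were called in any of the 10 comparisons, and their lowest adjusted p was 0.85. HAS2 was left out of this count because its levels were used to choose the group. The share of all features called against Parent was 0.0326% in NME1-wild-type, 0.218% in NME1-E5A, 0.00544% in NME1-K12Q and 0.103% in NME1-P96S. At an unadjusted p under 0.05 there were 253, 548, 273 and 577 features in those comparisons. Against NME1-wild-type the share was 0.207% in NME1-E5A, 0.0381% in NME1-K12Q and 0.201% in NME1-P96S. It was 0.169% for NME1-K12Q against NME1-E5A, 0.239% for NME1-P96S against NME1-E5A and 0.277% for NME1-P96S against NME1-K12Q.

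The HAS2 differences were recomputed over 29 settings as a description. NME1-E5A was above NME1-wild-type by 0.92 to 1.07 over these settings. Several of them, such as the replicate block, the intensity trend or leaving out an array of another line, cannot change this difference. The narrow range is therefore no support for it. The difference from Parent lay between 0.70, without Parent replicate 2, and 0.99, without Parent replicate 1.

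**Figure D2:**
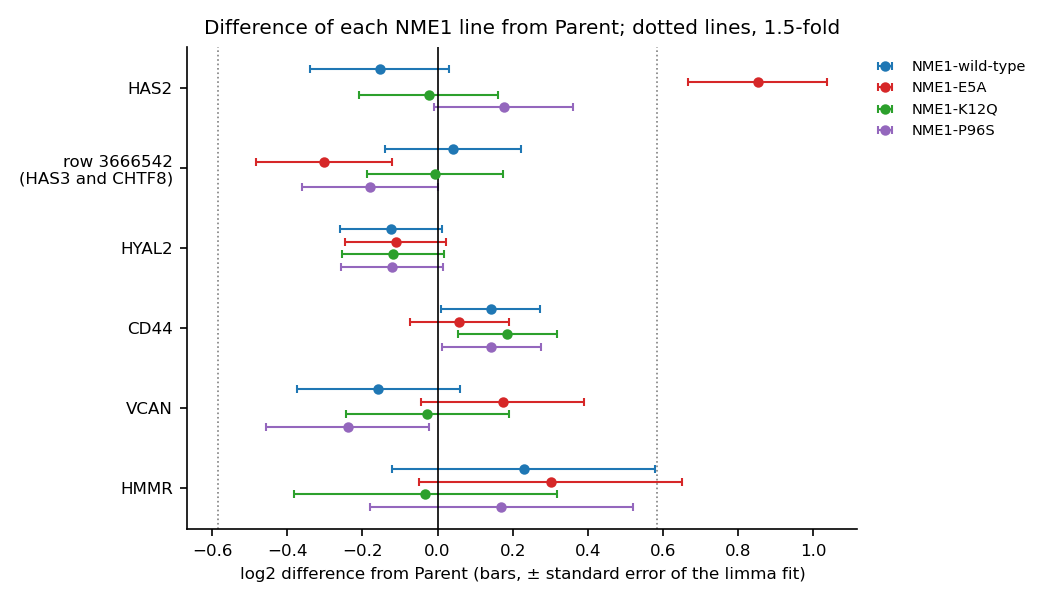
Log2 difference of each NME1 line from Parent (horizontal axis) for the 6 rows, with the standard error of the fit over all 20 arrays as bars and dotted lines at 1.5-fold. HAS2 in NME1-E5A, at 0.85, is the point beyond a dotted line, and all points of HYAL2 and CD44 lie within 0.19 of 0.

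The HAS2 arrays of NME1-E5A did not overlap those of any other line, which describes the values that chose the gene. Over all features, arrays did not overlap for 1.99% between NME1-E5A and Parent, 3.54% between NME1-K12Q and NME1-E5A and 3.01% between NME1-P96S and NME1-E5A. Of the other 5 rows, 1 had arrays of NME1-E5A apart from another line, row 3666542 against NME1-wild-type, where the share of all features was 3.3%. Row 3666542, which carries HAS3, a synthase of shorter chains, read 5.52, 5.28, 5.67 and 5.47 in NME1-E5A and 5.81, 5.95, 5.77 and 5.77 in NME1-wild-type. It was lower in NME1-E5A by 0.34 (SE 0.181, limma adjusted p = 1.00), so that it was not called. Its means in the other lines were 5.79 ± 0.374 (SD, n = 4) in Parent, 5.78 ± 0.163 in NME1-K12Q and 5.61 ± 0.382 in NME1-P96S, with arrays of all these lines overlapping. The row cannot be divided between HAS3 and CHTF8.

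HYAL2, a hyaluronidase anchored at the cell surface that cuts long chains into fragments, differed little between the lines. Its means were 8.07 ± 0.316 (SD, n = 4) in Parent, 7.95 ± 0.0442 in NME1-E5A, 7.95 ± 0.0751 in NME1-K12Q, 7.94 ± 0.220 in NME1-P96S and 7.94 ± 0.0344 in NME1-wild-type. All neighbours in this order overlapped. The Parent arrays read 7.82, 8.47, 8.17 and 7.81, so the Parent mean was set apart by replicates 2 and 3. The 95% intervals of all 10 differences between lines reached no further than 0.41 from 0, inside the 0.58 that 1.5-fold corresponds to.

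CD44, the main cell-surface receptor for hyaluronan, also differed little. Means ran from 9.62 ± 0.222 (SD, n = 4) in Parent through 9.68 ± 0.0843 in NME1-E5A, 9.77 ± 0.139 in NME1-wild-type and 9.77 ± 0.196 in NME1-P96S to 9.81 ± 0.174 in NME1-K12Q. The Parent arrays read 9.81, 9.31, 9.74 and 9.63, and the NME1-K12Q arrays 9.62, 9.70, 9.97 and 9.94. The pair overlapped, and their difference of 0.19 (SE 0.132) was the largest among the 10. No 95% interval for CD44 reached further than 0.46 from 0. A single row summarises the gene, so the splice forms of CD44 were not resolved.

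VCAN encodes versican, the large proteoglycan that binds hyaluronan. It had the widest difference among the 5 rows other than HAS2. The NME1-E5A arrays read 7.87, 7.92, 7.91 and 7.72, and the NME1-P96S arrays 7.67, 7.86, 6.76 and 7.46. NME1-P96S replicate 3, a narrow array, was the lowest, while replicate 2 lay among the NME1-E5A values. The difference of 0.41 (SE 0.217, limma adjusted p = 1.00) was not called. Parent read 7.86, 7.17, 7.57 and 8.11, NME1-wild-type 7.35, 7.31, 7.71 and 7.72, and NME1-K12Q 7.67, 7.25, 7.80 and 7.89. The 5 lines overlapped in the order of means, from 7.85 ± 0.0928 (SD, n = 4) in NME1-E5A to 7.44 ± 0.482 in NME1-P96S. The 95% intervals reached 0.87 from 0, so they hold differences beyond 1.5-fold.

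HMMR, also called RHAMM, encodes a hyaluronan-binding protein that works inside the cell at the mitotic spindle as well. It varied more between the arrays of a line than between lines. Parent read 6.70, 5.84, 6.94 and 7.80, a range of 1.96. NME1-P96S read 7.56, 7.48, 5.97 and 6.96, and NME1-K12Q 6.99, 6.11, 6.93 and 7.12. The lowest array in each of these lines was the one of narrowest spread. NME1-wild-type read 7.39, 6.75, 7.03 and 7.02 and NME1-E5A 7.31, 6.95, 7.35 and 6.88. The means, from 6.79 ± 0.460 (SD, n = 4) in NME1-K12Q to 7.12 ± 0.241 in NME1-E5A, differed by 0.33 at most (SE 0.350), and the intervals reached 1.06 from 0.

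All 6 rows moved with the spread of values on an array. With each line centred on its mean, the correlation with the interquartile range over the 20 arrays was r = 0.96 for VCAN, 0.93 for HMMR, 0.73 for HAS2 and 0.70 for CD44. For row 3666542 it was -0.92 and for HYAL2 -0.88. This was common on the arrays: the median size of r over all features was 0.76, and 73.8% of features exceeded 0.5. The rows also correlated with each other, as with VCAN and HMMR (r = 0.86) and HYAL2 and VCAN (r = -0.88), on arrays that share this spread. Its part in these correlations was not tested. The NME1-E5A arrays had ranges of 2.71 to 2.80, within the 2.19 to 3.07 of the Parent arrays, and their mean of 2.75 was close to the 2.74 of NME1-wild-type. With the range as a covariate HAS2 was 0.77 above Parent in NME1-E5A and 1.00 above NME1-wild-type. These values describe the levels that chose the gene, and the part of array spread in the HAS2 differences was not tested.

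**Figure D3:**
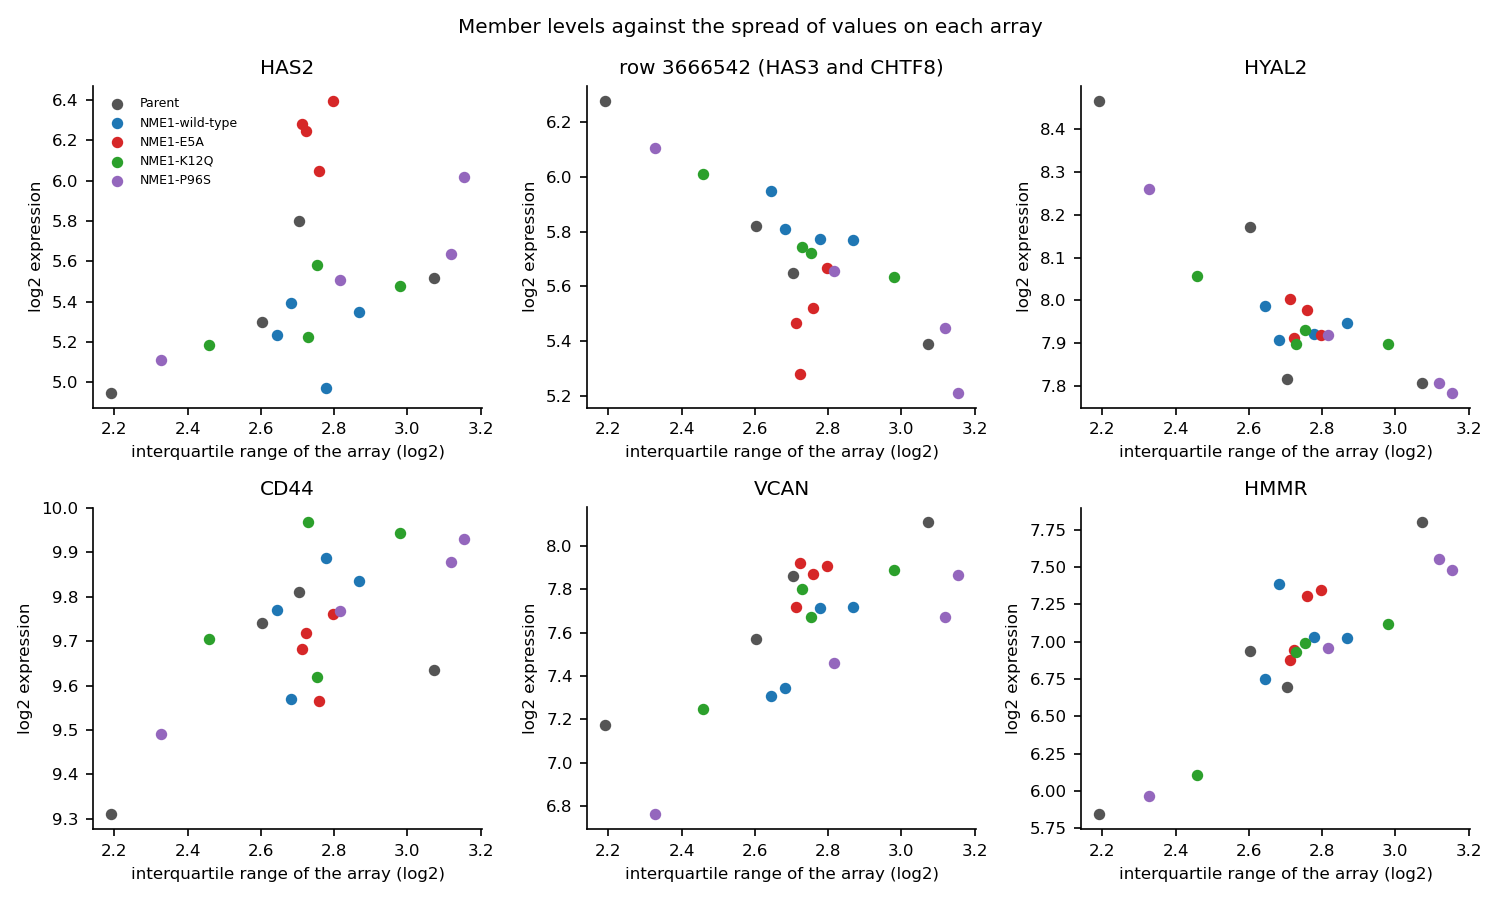
Log2 expression of the 6 rows (vertical axes) against the interquartile range of each array (horizontal axis, log2), 1 point per array, coloured by line. HMMR and VCAN are low and HYAL2 is high on the narrow arrays at the left. The NME1-E5A points of HAS2 lie at interquartile ranges of 2.71 to 2.80 and levels of 6.05 to 6.40.

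HMMR was set beside 12 genes listed by function for mitosis and the spindle, BRCA1 among them, with earlier results of these data known. The list includes TTK, a spindle checkpoint kinase, and CCNB1, the mitotic cyclin B1. Of these 12, 0 were called in any of the 10 comparisons. Their median differences from Parent were 0.23 in NME1-wild-type, 0.22 in NME1-E5A, 0.18 in NME1-K12Q and 0.04 in NME1-P96S. In the same order the medians over all features were -0.03, -0.04, -0.05 and -0.06. Over features with a mean of at least 5 they were -0.0009, -0.012, -0.025 and -0.017. The part of expression level and array spread in the differences of the 12 genes was not tested. TPX2, which targets a kinase to the spindle, differed by 0.23, 0.24, 0.36 and 0.15, and CCNB1 by 0.21, 0.22, 0.07 and -0.05. With lines centred, HMMR correlated with TTK at r = 0.97, with BUB1 at 0.92, with CCNB1 at 0.92 and with PLK1 at 0.07. The median over the 12 was 0.78, against -0.38 over all features, and 11.8% of all features reached it. The 12 genes moved with the spread of the arrays too, at a median r of 0.82, and HMMR did so at 0.93. VCAN, which is not on the list, correlated with HMMR at r = 0.86. The part of the spread in these correlations was not tested.

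The HMMR promoter is shown with the letters of 2 elements that are known from promoters of mitotic genes. They are the CCAAT box and TTTGAA, a form of the cell cycle homology region. Whether these elements have a part in the HMMR levels was not tested. The window is chr5:163460382-163460681 on the plus strand (RefSeq, GRCh38.p14), 250 bases before to 50 after the start of the gene, and capitals mark both elements on either strand.
HMMR promoter: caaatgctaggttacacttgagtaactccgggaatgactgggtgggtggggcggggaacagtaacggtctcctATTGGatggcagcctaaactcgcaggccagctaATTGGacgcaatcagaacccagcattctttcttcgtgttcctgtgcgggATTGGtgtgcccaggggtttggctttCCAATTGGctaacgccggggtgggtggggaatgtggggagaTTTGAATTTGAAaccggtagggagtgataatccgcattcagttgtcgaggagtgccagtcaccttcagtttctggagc
It held 5 matches to CCAAT, 4 of them as ATTGG on the reverse strand and 1 pair overlapping, between 177 and 66 bases before the start. TTTGAA occurred 2 times in tandem, 28 and 22 bases before the start. Of 35116 promoter windows of 300 bases, 34.6% held CCAAT and 15.2% held TTTGAA on either strand. Of the 12 genes set beside HMMR, 9 were matched to windows, and 6 of these held CCAAT and 4 held TTTGAA. A match is a description of the letters and not evidence of a bound site.

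The wider pathway was examined with 41 further genes listed by function, of which 36 had a row of their own. The list was drawn up with earlier results of these data known, so its counts are a description. Against Parent, 0 were called in NME1-wild-type and NME1-K12Q, 1 was lower in NME1-E5A and 1 was higher in NME1-P96S. The median differences were -0.09 in NME1-wild-type, -0.13 in NME1-E5A, -0.06 in NME1-K12Q and -0.01 in NME1-P96S, beside -0.03, -0.04, -0.05 and -0.06 over all features. The 1 gene called of 36 stood beside 0.218% of all features in NME1-E5A and 0.103% in NME1-P96S. Between lines, 2 were higher in NME1-P96S than in NME1-wild-type, 3 than in NME1-E5A and 2 than in NME1-K12Q, and 0 were called in the remaining 3 pairs. Of all features, 0.201%, 0.239% and 0.277% were called in those 3 comparisons of NME1-P96S. The genes called were ACAN, ITIH5 and CEMIP.

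ACAN encodes aggrecan, which like versican binds hyaluronan and is best known from cartilage. The NME1-P96S arrays read 7.77, 8.07, 7.88 and 7.94, above all 16 others. The NME1-E5A arrays read 6.73, 6.99, 6.82 and 7.01. Parent lay between these 2 lines at 7.52, 7.48, 7.47 and 7.58, with no overlap on either side. ACAN was also below Parent without overlap in NME1-wild-type (-0.30) and NME1-K12Q (-0.27), neither of them called. Over all features, arrays did not overlap those of Parent for 0.827% in NME1-wild-type, 1.99% in NME1-E5A, 1.17% in NME1-K12Q and 1.23% in NME1-P96S. ACAN was 2.04-fold higher in NME1-P96S than in NME1-E5A, a difference of 1.03 (SE 0.122, limma adjusted p = 0.000225). This call held in all 30 settings tried, with adjusted p up to 0.0411. ACAN fell by 0.63 in NME1-E5A against Parent (limma adjusted p = 0.0252), from 7.52 ± 0.0482 to 6.89 ± 0.134 (SD, n = 4), and this call ended without any 1 of the 8 arrays and with each array centred on its median (-0.60). ACAN was also higher in NME1-P96S than in NME1-wild-type, by 0.69 (limma adjusted p = 0.0152), and than in NME1-K12Q, by 0.67 (limma adjusted p = 0.0154). The first call ended without NME1-wild-type replicate 1 or 2 or NME1-P96S replicate 2 or 4, and the second without NME1-K12Q replicate 1 or 3 or NME1-P96S replicate 2 or 4, and over all settings these differences ran from 0.58 to 0.77 and from 0.62 to 0.72.

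ITIH5 encodes a heavy chain of the inter-alpha-trypsin inhibitor family, proteins that can be linked to hyaluronan. It was higher in NME1-P96S than in every other line. The NME1-P96S arrays read 8.83, 8.94, 8.59 and 8.97, and the highest array of another line was NME1-wild-type replicate 4 at 8.39. The mean rose from 8.11 ± 0.136 (SD, n = 4) in Parent to 8.83 ± 0.172, by 0.72 or 1.64-fold (SE 0.125, limma adjusted p = 0.0196). The difference was 0.70 from NME1-wild-type (limma adjusted p = 0.0167), 0.88 from NME1-E5A (limma adjusted p = 0.00117) and 0.63 from NME1-K12Q (limma adjusted p = 0.0290). The call against NME1-E5A held without each single array. Those against Parent, NME1-wild-type and NME1-K12Q ended without NME1-P96S replicate 2 or 4. Against Parent it also ended without NME1-P96S replicate 1 or Parent replicate 1 or 3, against NME1-wild-type without its replicate 1 or 2, and against NME1-K12Q without NME1-P96S replicate 1 or NME1-K12Q replicate 1, 2 or 4 and with median centring (0.64). Over all settings the 3 differences ran from 0.59 to 0.80.

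CEMIP encodes a protein needed for hyaluronan breakdown outside the HYAL family. The NME1-P96S arrays read 10.06, 10.40, 9.95 and 10.14, and no other array exceeded 9.68. CEMIP was 2.03-fold higher in NME1-P96S than in NME1-E5A, where the arrays read 8.77, 9.22, 9.21 and 9.26 (difference 1.02, SE 0.175, limma adjusted p = 0.00764). It differed by 0.78 from Parent (limma adjusted p = 0.179), by 0.80 from NME1-wild-type (limma adjusted p = 0.0688) and by 0.68 from NME1-K12Q (limma adjusted p = 0.157) without being called. In these 3 comparisons, features whose arrays did not overlap made up 1.23%, 1.83% and 2.22% of all. With only the 8 arrays of the lines compared, the call of ACAN between NME1-P96S and NME1-E5A held and the other calls of these 3 genes ended. None of the 3 genes was called in NME1-wild-type against Parent, where ACAN differed by -0.30, ITIH5 by 0.02 and CEMIP by -0.02.

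**Figure D4:**
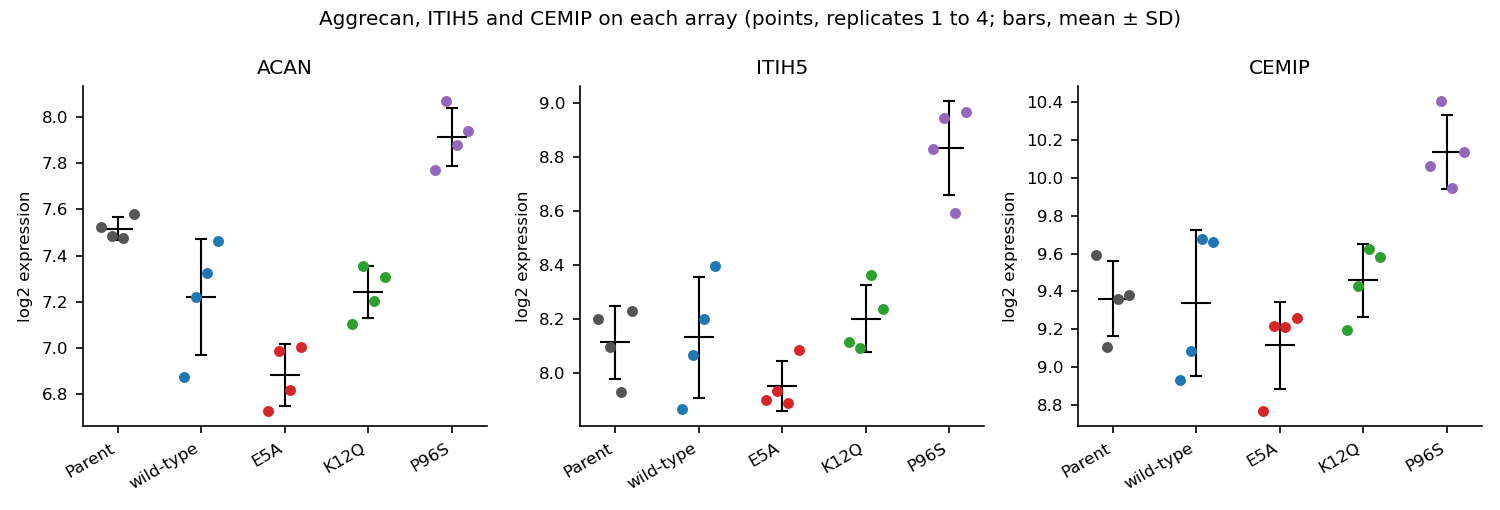
Log2 expression of ACAN, ITIH5 and CEMIP (vertical axes, a different range in each panel) on the 4 arrays of each line (points), with mean and SD as bars. In all 3 panels the NME1-P96S arrays lie above the other 16, and in the ACAN panel NME1-E5A is lowest at a mean of 6.89.

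Precursor enzymes, other receptors, versican proteases and the CD44 linkage genes held no called gene in any of the 10 comparisons. The 9 measured enzymes that make the sugar precursors of hyaluronan had 8 positive differences from Parent in each NME1 line, with medians of 0.16 in NME1-wild-type, 0.31 in NME1-E5A, 0.12 in NME1-K12Q and 0.12 in NME1-P96S. Over all features, positive differences made up 41.1%, 39.2%, 36.3% and 38.3%. That share includes dim features, whereas the 9 genes had medians from 7.34 (UAP1) to 11.06 (GPI), above the array medians of 6.27 to 6.50. Parent also had the lowest mean interquartile range of the lines, 2.64. The part of brightness and array spread in these signs was not tested. For single genes the differences from Parent are given in the order NME1-wild-type, NME1-E5A, NME1-K12Q, NME1-P96S. They were 0.08, 0.57, 0.25 and 0.22 for GPI, a glycolytic isomerase that makes fructose 6-phosphate. For GFPT1, the first enzyme of the hexosamine pathway, they were 0.01, 0.09, 0.15 and 0.18. The 4 lines share the Parent arrays, so their agreement in sign is not independent. Of the 6 other hyaluronan receptors measured, 0 of 6 differences were positive in NME1-E5A and 1 of 6 in each other line. All of them except TLR4 (median 8.47) were dim, with medians from 3.56 (LYVE1) to 5.79 (STAB1), below the array medians. The part of brightness and array spread in these signs was not tested either. TLR4, an innate immune receptor, differed by 0.08, -0.23, 0.33 and -0.17, and STAB1, a scavenger receptor, by -0.16, -0.14, -0.14 and -0.30.

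In the same order of lines, CEMIP2, a cell-surface relative of CEMIP, differed from Parent by 0.06, 0.06, 0.50 and 0.08. GUSB, the lysosomal beta-glucuronidase, differed by 0.02, 0.13, 0.00 and 0.11. Neither of these breakdown genes was called. Among matrix partners, PTX3, a pentraxin that takes part in hyaluronan matrices, differed by 0.06, -0.14, -0.26 and 0.32, and C1QBP, known as a hyaluronan-binding protein, by 0.21, 0.02, 0.15 and 0.14, with neither called. Of 6 proteases that cut versican, 5 were measured and 0 called. ADAMTS1 differed by -0.23, 0.27, 0.07 and 0.21 and ADAMTS9 by -0.06, 0.25, 0.10 and 0.44. Of 9 genes for the cytoskeletal linkage, cleavage and splicing of CD44, 6 were measured and 0 called. MSN, which encodes the linker moesin, differed by 0.06, 0.26, 0.22 and 0.20 and MMP14, a membrane protease that cuts CD44, by -0.08, 0.26, 0.34 and -0.08.

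The genes whose pattern was most like that of HAS2 over the 20 arrays were sought among 10899 features with a single symbol and a mean of at least 5. They were TENT5A (r = 0.88), NRN1 (0.84), VLDLR (0.84), AK4 (0.81) and PYGL (0.81). All 5 had their highest mean in NME1-E5A, at 0.53, 1.35, 1.17, 1.55 and 0.27 above Parent in the same order. With the lines centred, r was between 0.61 and 0.77 for the 5. The most opposite patterns were those of SYT6 (r = -0.79), RAP1GAP2 (-0.76) and GPER1 (-0.76), which were 0.54, 0.405 and 0.45 lower in NME1-E5A than in Parent. These correlations describe 20 arrays that share lines and array spread, and the genes were named for their likeness alone. Their high or low levels in NME1-E5A follow largely from that choice, since HAS2 itself was highest there.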

How the data were processed

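Expression was measured on 20 Affymetrix Human Exon 1.0 ST arrays. The authors deposited log2 values normalised with RMA, per the labels' design text. The submitters' processing notes also name limma. Versions, genome build and annotation release are not given in the sources used here. RMA shares its normalisation across arrays, yet array spread still differed.

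Rows were named with the platform annotation: 14735 had 1 symbol, 2873 several and 1100 were not listed. For genes with more than 1 row the brightest was kept (324 left out), which gave 18384 features. No member row was left out. Line and replicate came from the titles. A limma model (3.58.1, R 4.3.3) with a mean per line was fitted over all 20 arrays with 15 residual degrees of freedom. It was also run on simulated data with known changes. That noise was drawn separately for each feature and array, without the shared array spread. The run therefore cannot show how the fit behaves under that spread. All 10 pairs were compared, two-sided, with p-values adjusted by Benjamini-Hochberg within each. p-values measure only the spread between technical replicates. The number of arrays limits precision.

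Genes named were all members, listed genes called in any comparison, the 2 brightest others of each list, and the 5 genes most and 3 least like HAS2. BUB1, TTK and PLK1 were named after their values were seen. Members and lists were chosen with earlier results of these data known. Alternatives were median centring, quantile normalisation, the interquartile range as a covariate, a replicate block, a filter at a mean of 5, fits of 2 lines alone, an intensity trend, no minimum fold, all rows kept, each array left out, and, added after the data were seen, the 3 narrowest arrays left out.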

Additional observations from a re-analysis of the deposited data

How the results depend on the processing

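Over 30 alternative settings, 280 of 300 counts of called members and 269 of 300 counts over the wider list stayed within 1.5 times their value. All 290 recomputed HAS2 differences and all 1450 of the other members moved by less than 1 SD between arrays. Several settings leave a difference unchanged, and leaving out 1 of 4 arrays shifts a mean little against that SD. This outcome was thus largely fixed in advance and does not measure robustness. HAS2 was the single member that ever entered the counts. These counts are therefore test calls of HAS2, made on the same levels that chose the group. They are given only to show how the counts depend on the settings, and support nothing about HAS2. The count of members in NME1-E5A against Parent went from 0 to 1 with the interquartile range as a covariate and without the 3 narrowest arrays, and was 0 to 1 when 1 array was left out (1 without Parent replicate 1 or NME1-P96S replicate 2 or 3). In NME1-K12Q against NME1-E5A it went from 0 to 1 under those settings, with the filter at a mean of 5 and with only the 8 arrays of the 2 lines, and was 0 to 1 leaving out 1 array (1 without Parent replicate 1 or 2 or NME1-P96S replicate 2 or 3). In NME1-P96S against NME1-E5A it became 1 with the covariate. In NME1-E5A against NME1-wild-type it went from 1 to 0 with quantile normalisation and was 0 to 1 leaving out 1 array (0 without NME1-wild-type replicate 2 or 3 or NME1-E5A replicate 2, 3 or 4).

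For the wider list, the count in NME1-E5A against Parent went from 1 to 0 when arrays were centred on their medians or the 8 arrays were fitted alone, and was 0 to 1 leaving out 1 array. With the 8 arrays alone, NME1-P96S had 0 against Parent, 0 against NME1-wild-type, 1 against NME1-E5A and 0 against NME1-K12Q. Median centring gave 1 against NME1-K12Q. Leaving out 1 array gave 0 to 1 against Parent and 0 to 2 against NME1-wild-type and NME1-K12Q. The cause of these changes was not tested. With 8 arrays the fit has fewer samples.

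The labels do not say that equal replicate numbers share anything. Deviations from the line means correlated between -0.849 and 0.810 (median 0.235) over 40 same-numbered pairs of arrays, with 25 above 0.1. Over 120 pairs of different number the median was -0.0541, with 38 above 0.1. Of 20 arrays, 11 correlated best with one of their own number. Whether equal numbers share anything, or array spread has a part in this, was not tested. Since not every same-numbered pair exceeded 0.1, the numbers were not used as pairs. With a replicate block no count of members or of the wider list changed. The HAS2 difference between NME1-E5A and NME1-wild-type stayed at 1.01. As every line holds each replicate number, the block cannot change this difference, so the value says nothing about sharing.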
